A study of Mus musculus with 3 samples.

Results

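The Hox cluster genes are the homeobox genes that lie side by side in the Hoxa, Hoxb, Hoxc and Hoxd clusters. They were taken from GENCODE M21 as the protein-coding genes whose symbol is Hox, a letter from a to d and a number, and values are given for 38 of 21944 protein-coding genes. The ChIP-seq data came from mouse cortices at E13.5, with 1 library each for input chromatin, NF-Y-ChIP and H3K4me3-ChIP. NF-Y-ChIP used an antibody against NF-YC, a subunit of the transcription factor NF-Y, and H3K4me3-ChIP an antibody against histone H3 trimethylated at lysine 4. The labels and the methods for ChIP give no genotype, strain or treatment for these cortices, and elsewhere in the methods the cortices used for western blotting are from B6 embryos. The data used here were 2 lists of peaks called by the authors with MACS2 on the mm10 (GRCm38) assembly. No peak list of the input was used here. Since each antibody has a single library, the values have no replicate error, and no test was made between groups of genes.

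Hox genes encode homeodomain transcription factors that give cells along the body axis their position. Within a cluster, genes with a low number (paralogue group) are active earlier and further towards the head, and genes with a high number later and further towards the tail. Their activity ends in the hindbrain, behind the forebrain from which the cortex forms. H3K4me3 is a mark of gene starts that is deposited by the Trithorax-type methyltransferases and is commonly found at starts rich in CpG. Polycomb complexes hold Hox genes silent through other histone marks. NF-Y binds the CCAAT box, which reads ATTGG on the opposite strand.

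A gene was called marked when an H3K4me3-ChIP peak lay within 1000 bp of a transcription start site (TSS), the 5′ end of any of its transcripts. An H3K4me3-ChIP peak met this rule at 6 Hox genes, which were Hoxa4, Hoxa7, Hoxd1, Hoxd8, Hoxd9 and Hoxd13. The share was 15.8% (Wilson 95% confidence interval 7.44 to 30.4%), against 62.7% of all protein-coding genes. No Hox gene had an NF-Y-ChIP peak within the same distance, against 3.2% of all protein-coding genes. The upper limit of the Wilson interval for 0 of 38 genes was 9.18%, so the number of Hox genes is too small to set their share apart from that of all genes. The absence was not particular to Hox genes. None of 110 other homeobox genes (upper limit 3.37%) and none of 14 cortical transcription factor genes had an NF-Y-ChIP peak. All 10 genes of the Hoxb cluster and all 9 of the Hoxc cluster lacked an H3K4me3-ChIP peak. The Wilson intervals of the share marked overlapped between the clusters. They were 5.67 to 51.0% for Hoxa, 0 to 27.8% for Hoxb, 0 to 29.9% for Hoxc and 18.9 to 73.3% for Hoxd.

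The sequence upstream of 3 pairs of paralogues is shown because the members of each pair sit at matching places in their clusters and only 1 member of each was marked. The sequences are the 250 bases before the RefSeq start of each gene on GRCm38.p6, 5′ to 3′ on the strand of the gene, and capitals mark CCAAT and ATTGG. For Hoxb1 the last bases, which GENCODE places in an exon, were left off, and 244 remained. The pairs were chosen after the sequences had been seen. Hoxd1 lies at chr2:74762730-74762979, Hoxb1 at chr11:96365508-96365751, Hoxd8 at chr2:74704365-74704614, Hoxb8 at chr11:96281655-96281904 and Hoxd13 at chr2:74667975-74668224, all on the plus strand. Hoxa13 lies at chr6:52260881-52261130 on the minus strand.
Hoxd1: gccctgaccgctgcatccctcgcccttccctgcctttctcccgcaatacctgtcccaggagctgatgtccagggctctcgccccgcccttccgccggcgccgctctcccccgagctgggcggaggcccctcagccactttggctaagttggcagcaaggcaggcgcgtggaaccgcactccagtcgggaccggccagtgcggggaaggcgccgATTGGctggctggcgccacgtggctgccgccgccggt
Hoxb1: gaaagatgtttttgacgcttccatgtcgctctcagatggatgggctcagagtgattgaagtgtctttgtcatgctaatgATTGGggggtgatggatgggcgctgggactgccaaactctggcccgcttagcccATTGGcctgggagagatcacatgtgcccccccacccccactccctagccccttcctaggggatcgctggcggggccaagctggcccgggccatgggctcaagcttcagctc
Hoxd8: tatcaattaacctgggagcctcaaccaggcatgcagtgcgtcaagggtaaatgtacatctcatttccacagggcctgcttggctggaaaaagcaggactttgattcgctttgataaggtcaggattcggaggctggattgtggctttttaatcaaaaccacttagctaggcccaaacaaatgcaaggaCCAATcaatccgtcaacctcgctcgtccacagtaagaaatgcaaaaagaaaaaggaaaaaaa
Hoxb8: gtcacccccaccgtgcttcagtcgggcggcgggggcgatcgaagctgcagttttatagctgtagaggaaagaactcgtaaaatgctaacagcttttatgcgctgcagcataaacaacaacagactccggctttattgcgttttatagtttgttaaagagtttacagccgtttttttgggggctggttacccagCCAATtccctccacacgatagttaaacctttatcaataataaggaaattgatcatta
Hoxd13: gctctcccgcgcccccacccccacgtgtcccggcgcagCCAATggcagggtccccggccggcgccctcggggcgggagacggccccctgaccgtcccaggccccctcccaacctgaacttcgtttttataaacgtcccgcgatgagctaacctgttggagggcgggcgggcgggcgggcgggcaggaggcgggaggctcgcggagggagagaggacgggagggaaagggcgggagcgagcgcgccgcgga
Hoxa13: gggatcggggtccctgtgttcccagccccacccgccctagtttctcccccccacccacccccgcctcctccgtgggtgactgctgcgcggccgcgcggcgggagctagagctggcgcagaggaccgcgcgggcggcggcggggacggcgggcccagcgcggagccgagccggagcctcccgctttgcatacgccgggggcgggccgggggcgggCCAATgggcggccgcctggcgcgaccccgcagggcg
In these windows the marked Hoxd1 and the unmarked Hoxb1 differed in the number of CpG, with 24 in Hoxd1 and 7 in Hoxb1. The pair of Hoxd8 and Hoxb8 ran the other way, with 6 CpG in the window of the marked Hoxd8 and 12 in that of the unmarked Hoxb8. Hoxd13, marked, had 31 CpG and Hoxa13, not marked, had 35. The median over all 32851 RefSeq windows of this length was 6. The H3K4me3-ChIP peak of Hoxd1 covered all 250 bases shown, whereas those of Hoxd8 and Hoxd13 covered none of the bases shown and lay downstream of the start. A CCAAT box was present in each of the 6 windows, 1 in each except Hoxb1, which had 2. Since the pairs were chosen after the sequences had been seen, this count gives no share of Hox genes. A box was present in 14 of 24 RefSeq windows of Hox genes and in 33.8% of all windows.

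In the Hoxa cluster (chromosome 6, Hoxa2 to Hoxa13, 52162417 to 52260880, 98.5 kb), 2 of 10 genes were marked. Hoxa4, a gene of the neck region, had a peak of 11.0-fold enrichment over the local background at its summit, a width of 476 bp and a −log10 q-value of 18.6 (52191836 to 52192311). Its summit lay 360 bp upstream and its nearer edge 83 bp from the TSS. Hoxa7, which acts in the trunk, had a peak of 5.70-fold and 336 bp (52221466 to 52221801, −log10 q 9.58), with the summit 187 bp downstream of the gene's nearest TSS in the 5′ UTR. The fold was thus higher at Hoxa4 than at Hoxa7, with no error to set beside the step.

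The other 8 Hoxa genes had no peak within the distance. Hoxa9 was 4.39 kb from the nearest H3K4me3-ChIP peak and Hoxa3 6.96 kb. Hoxa2, which patterns the hindbrain, was not marked either, and Hoxa9 and Hoxa10 act in the posterior trunk. Hoxa10 was 11.5 kb, Hoxa5 12.3 kb and Hoxa6 12.7 kb from a peak. Hoxa11 and Hoxa13, limb and urogenital genes, were 24.0 and 39.0 kb away. The peaks of Hoxa4 and Hoxa7 were 29.2 kb apart, and beyond Hoxa7 no peak followed for 84.2 kb. Of all stretches between successive H3K4me3-ChIP peaks, 57.6% were longer than the first and 31.9% longer than the second.

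The Hoxd cluster (chromosome 2, 74668310 to 74765142, 96.8 kb) held 4 marked genes of 9. Hoxd1 had the strongest peak of the 6 marked genes, at 14.0-fold and 658 bp (74762656 to 74763313, −log10 q 27.5). The summit lay 98 bp downstream of the TSS in the 5′ UTR, and the start of the non-coding RNA Haglr lies at the same peak. Hoxd8 had a peak of 7.03-fold and 398 bp (74705020 to 74705417, −log10 q 8.76), with the summit 126 bp downstream of a TSS in the 5′ UTR. Hoxd9 had a peak of 4.57-fold and 196 bp (74698366 to 74698561, −log10 q 4.12), the narrowest of the 6, and Gm28793, a non-coding gene, is within 1000 bp of it too. Its summit lay in a coding exon, 762 bp downstream of the TSS, and its nearer edge 639 bp from it. Hoxd13, a gene of the digits, had the lowest fold, 4.34, over 308 bp (74668250 to 74668557, −log10 q 4.53), with the summit 114 bp downstream of the TSS in a coding exon.

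Hoxd10 (6.44 kb), Hoxd12 (6.46 kb), Hoxd3 and Hoxd4 (6.51 kb each) and Hoxd11 (11.0 kb) were not marked. Hoxd3 and Hoxd4 have TSSs at nearly the same place, which gives them the same distance. Hoxd10 acts in lumbar motor neurons, and Hoxd11 and Hoxd12 in the limb.

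**Figure D1:**
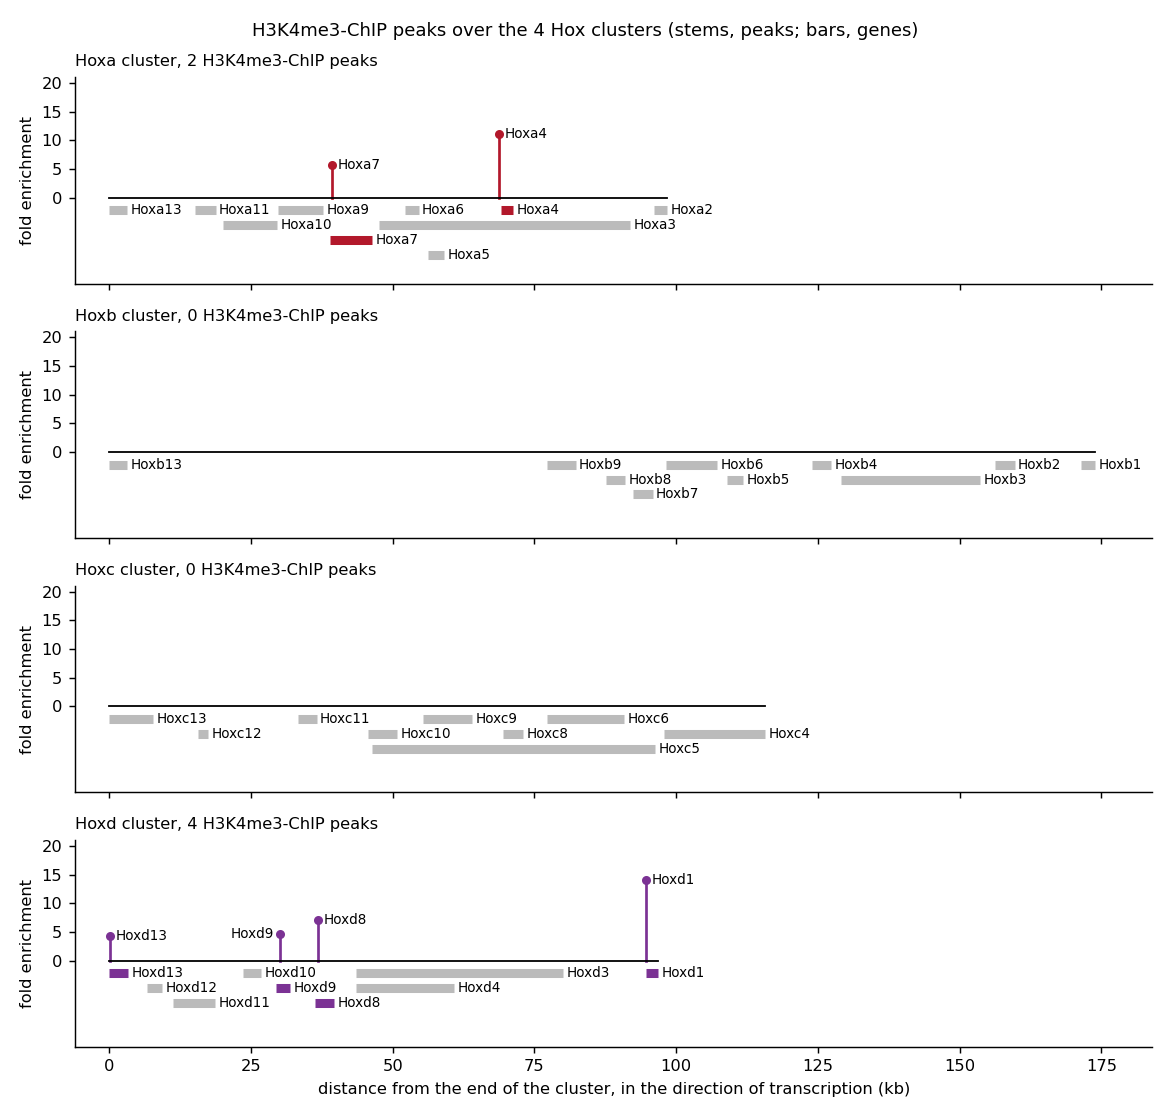
Each panel shows a Hox cluster drawn in the direction of transcription, with distance in kb on the x axis and the fold enrichment of each H3K4me3-ChIP peak on the y axis. Bars below the line are genes, coloured where marked, and the 6 stems all stand in Hoxa (2) and Hoxd (4), with the tallest at Hoxd1 (14.0-fold) and Hoxa4 (11.0-fold).

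No H3K4me3-ChIP peak lay anywhere in the Hoxb cluster (chromosome 11, 96194316 to 96368256, 174 kb) or in the Hoxc cluster (chromosome 15, 102921103 to 103036852, 116 kb). Hoxb13 was 69.6 kb from the nearest peak and Hoxb1, a gene of the hindbrain, 98.2 kb. Hoxb2 (113 kb), Hoxb3 (121 kb), Hoxb4 (146 kb) and Hoxb9 (147 kb) followed. Hoxb8 (157 kb), Hoxb5 (161 kb), Hoxb7 (162 kb) and Hoxb6 (165 kb) lay deepest in the stretch without peaks. In Hoxc, the distance was 52.0 kb for Hoxc4, 72.5 kb for Hoxc5, 76.8 kb for Hoxc6, 94.5 kb for Hoxc8 and 109 kb for Hoxc9. Hoxc6, Hoxc8 and Hoxc9 are known from motor neurons of the arm and chest levels of the spinal cord. Hoxc10 (120 kb), Hoxc11 (132 kb), Hoxc12 (150 kb) and Hoxc13 (165 kb), the last a gene of hair and nail, were farther from a peak.

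The stretch between successive H3K4me3-ChIP peaks that holds Hoxb was 339.7 kb long and that which holds Hoxc 338.8 kb. Of all 18795 such stretches, 8.77% were longer than that of Hoxb and 8.78% longer than that of Hoxc. Peaks covered 0.825% of Hoxa (812 bp) and 1.55% of Hoxd (1500 bp), and none of Hoxb or Hoxc, against 0.832% of the genome. The 2 and 4 peaks of Hoxa and Hoxd stayed as 2 and 4 separate blocks when peaks up to 1000 bp apart were merged.

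By paralogue class, 1 of 7 genes of groups 1 to 3, 3 of 15 of groups 4 to 8 and 2 of 16 of groups 9 to 13 were marked. The intervals of these shares overlapped (2.57 to 51.3%, 7.05 to 45.2% and 3.50 to 36.0%). In group 1, Hoxd1 was marked and Hoxb1 was not. Group 4 had Hoxa4 as 1 of 4, group 7 Hoxa7 as 1 of 2, group 8 Hoxd8 as 1 of 3, group 9 Hoxd9 as 1 of 4 and group 13 Hoxd13 as 1 of 4. Groups 2, 3, 5, 6, 10, 11 and 12 had no marked gene. No group had every gene described here marked.

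The peaks of the 6 marked genes were weak and narrow beside those of other genes. Their median fold was 6.37 (range 4.34 to 14.0) and their median width 367 bp (196 to 658 bp), against 39.9 and 1404 bp over all 13762 marked protein-coding genes. Hoxd1, the strongest, had a fold at or above that of 10.7% of marked genes, Hoxa4 of 7.73% and Hoxd8 of 3.49%. For Hoxa7 this was 2.03%, for Hoxd9 0.785% and for Hoxd13 0.625%. In width, Hoxd1 was at or above 8.31% of marked genes and Hoxd9 at or above 0.28%. A fold under 10 was found at 4 of the 6 Hox genes and at 907 of the 13762 genes (6.59%), and no Hox gene reached 20-fold, which 11396 genes (82.8%) did. Counting only peaks of at least 10-fold left Hoxa4 and Hoxd1, 2 of 38 genes against 58.6% of all protein-coding genes. The peak covered a TSS at Hoxd1, Hoxd8 and Hoxd13 only. The share of all protein-coding genes under this rule was not computed. Of 110 other homeobox genes, a peak covered a TSS at 66 and lay within 1000 bp of one at 75.

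**Figure D2:**
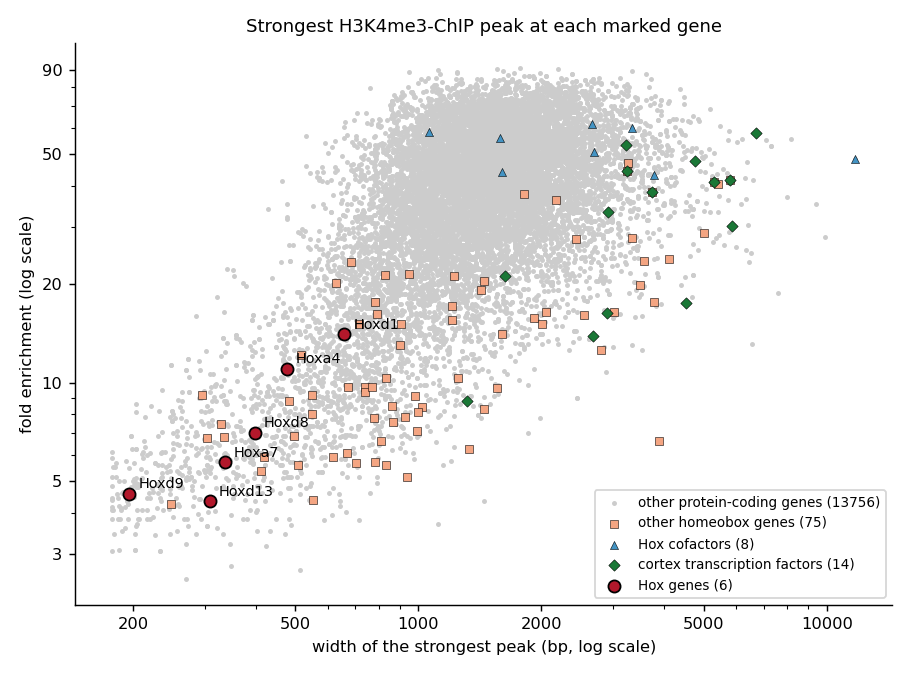
Width in bp (x axis, log scale) and fold enrichment (y axis, log scale) of the strongest H3K4me3-ChIP peak at each marked protein-coding gene, with Hox genes, other homeobox genes, Hox cofactors and cortex transcription factors in colour. The 6 Hox genes lie at 196 to 658 bp and 4.34- to 14.0-fold, towards the lower left, while the 8 cofactors lie between 43.0- and 61.5-fold.

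Because the mark is common at CpG-rich starts, the Hox genes were set beside genes of like CpG content. The measure was the ratio of observed to expected CpG in the 500 bp on each side of the gene's 5′ end, and genes at 0.6 or above were called CpG-rich, a limit chosen after the data had been seen. Of the Hox genes, 24 were CpG-rich and 6 of these were marked. The upper bound of the Wilson interval of this share was 44.9%. Among other protein-coding genes, 9780 of 10052 CpG-rich genes were marked (97.3%, 97.0 to 97.6%). All 6 marked Hox genes were CpG-rich, with a median ratio of 0.794, against 0.639 for the 32 unmarked ones. The highest ratios among marked genes were those of Hoxa4 (0.919) and Hoxd13 (0.905), and the lowest was that of Hoxa7 (0.640). Of the 32 unmarked genes, 16 lay below the range of the marked ones, 14 within it and 2 above it. Those above were Hoxa5 (0.996) and Hoxa13 (0.931), and the lowest were Hoxb2 (0.181), Hoxc4 (0.286) and Hoxb3 (0.328).

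The clusters differed in CpG content. CpG-rich genes numbered 8 of 10 in Hoxa, of which 2 were marked, and 7 of 9 in Hoxd, of which 4 were marked. Hoxb had 4 of 10 and Hoxc 5 of 9, none of them marked. Density over the whole cluster was 29.9 CpG per kb in Hoxa and 28.0 in Hoxd, against 20.9 in Hoxb and 21.5 in Hoxc. Repeats took 24.6% of Hoxb, and 13.4, 15.9 and 14.4% of Hoxa, Hoxc and Hoxd. When protein-coding genes were divided into 10 equal groups by the ratio, the share of other genes marked ran from 5.15% in the lowest group to 99.2% in the highest, which held 5 Hox genes with 2 marked. The part of CpG content and of repeats in the marks was not tested.

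**Figure D3:**
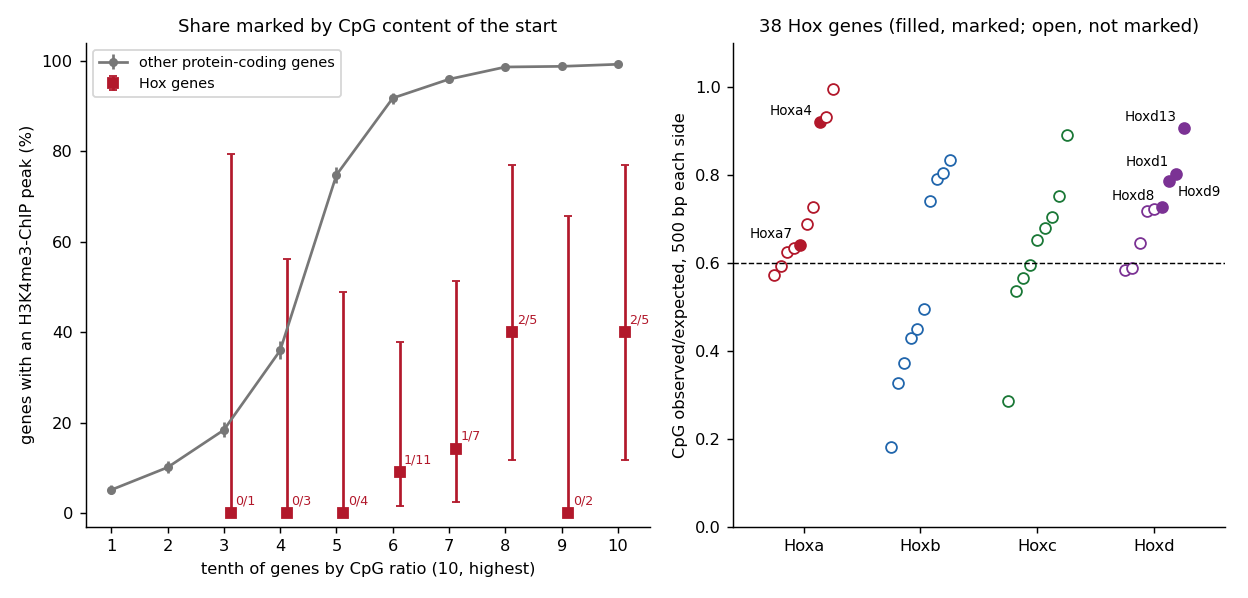
Left, the share of genes with an H3K4me3-ChIP peak (%, Wilson 95% interval) in each of 10 equal groups of protein-coding genes by CpG ratio, for Hox genes (squares, with counts) and other genes (line). Right, the CpG ratio of the 38 Hox genes by cluster, with the limit of 0.6 dashed, where the 6 marked genes (filled) span 0.640 to 0.919 and of the unmarked genes (open) 16 lie below that range, 14 within it and 2 above it.

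NF-Y-ChIP peaks were far from the clusters. The nearest lay 65.2 kb from Hoxc (103102044 to 103102295, 8.12-fold, nearest TSS that of Gm10830). For Hoxb it lay 409 kb away at Snx11, for Hoxd 894 kb away near Gm24574 and for Hoxa 2.56 Mb away at Znrf2. CCAAT or ATTGG occurred in the 200 bp upstream of the gene's 5′ end, on either strand, at 21 of 38 Hox genes (55.3%, 39.7 to 69.9%), against 6927 of 21893 other protein-coding genes (31.6%). In the RefSeq windows, 14 of the 24 windows of the 22 Hox genes matched had a box, and 33.8% of all windows did. In the 200 bp counted from the GENCODE 5′ end, Hoxa2 had 4 boxes and Hoxb1 and Hoxb7 2 each. The rest of the 21 genes with a box had 1 each. The box was present at 2 of the 6 marked genes, Hoxd1 and Hoxd8, and at 19 of the 32 unmarked ones. The box shown above for Hoxd13 lies 208 bp upstream of the RefSeq start, outside the 200 bp counted here from the GENCODE 5′ end.

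None of the 21 Hox genes with a box had an NF-Y-ChIP peak (upper limit 15.5%), against 518 of 6927 other genes with a box (7.48%). Other genes with both a box and an H3K4me3-ChIP peak had an NF-Y-ChIP peak in 518 of 4324 cases (11.98%), and those with a box but no H3K4me3-ChIP peak in 0 of 2603. Only 2 Hox genes belong to the first of these classes and 19 to the second, so a difference from other genes was not detectable. A match of CCAAT is a description of the sequence and no evidence of binding.

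Of the 8 protein-coding genes that border the clusters, 5 were marked, close to the 62.7% of all protein-coding genes. Skap2 beside Hoxa had a peak of 19.2-fold and Mtx2 beside Hoxd 49.6-fold. Calcoco1 (49.0-fold) and Smug1 (43.0-fold) border Hoxc, and Skap1 (9.41-fold) lies beyond Hoxb1. Evx1 beside Hoxa and Evx2 beside Hoxd, homeobox genes related to the Hox family, were not marked, nor was Ttll6 beside Hoxb13. Of 17 genes within reach of the clusters that were listed as neighbours, 13 were marked (interval 52.7 to 90.4%) with a median of 33.4-fold, and Calcoco2 was the remaining unmarked one. Snx11 was the neighbour with an NF-Y-ChIP peak.

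Of 110 other homeobox genes, 75 had a peak (68.2%, 59.0 to 76.1%), a share whose interval includes the 62.7% of all protein-coding genes, with a median fold of 10.4 and a median width of 936 bp. Among their CpG-rich members, 62 of 80 were marked (77.5%, 67.2 to 85.3%), against 6 of 24 in the Hox clusters. The ParaHox and Evx genes, the closest relatives of the Hox genes, were marked in 2 of 8 cases, Gsx1 (6.62-fold) and Gsx2 (15.1-fold), which act in the ventral forebrain. Evx1, Evx2, Pdx1, Cdx1, Cdx2 and Cdx4 were not marked.

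Genes whose products work with Hox proteins or set the state of Hox chromatin are mostly CpG-rich, and their shares stand beside 62.7% of all protein-coding genes and 97.3% of other CpG-rich genes marked. All 8 cofactor genes described of the Pbx, Meis and Pknox families, which bind DNA together with Hox proteins, had a peak, with a median of 53.3-fold. Pbx2 was at 61.5-fold and Meis2 at 48.2-fold over a peak of 11736 bp. Polycomb genes were marked in 18 of 18 cases (15 of them CpG-rich, median 46.2-fold), from Jarid2 (29.8-fold) to Suz12 (85.2-fold), and Ezh2, the H3K27 methyltransferase, was at 46.6-fold. Trithorax-type and demethylase genes were marked in 16 of 16 cases (12 of them CpG-rich, median 55.9-fold), with Kmt2a at 64.0-fold and Kdm6b, an H3K27 demethylase, lowest at 4.40-fold. NF-Y-ChIP peaks were at 4 of the Polycomb genes (interval 9.001 to 45.2%), Ezh2, Jarid2, Phc2 and Rbbp7, and at 2 of the Trithorax and demethylase genes (3.50 to 36.0%), Setd1b and Kdm6a. The share was 3.2% over all protein-coding genes and 5.08% over marked genes other than Hox.

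Genes of retinoic acid signalling and of hindbrain patterning, the inputs that switch on Hox genes, were marked in 9 of 13 cases (interval 42.4 to 87.3%, which includes the 62.7% of all protein-coding genes), with a median of 25.5-fold. The hindbrain regulator Egr2 had 24.2-fold. The retinoic acid receptor genes Rara, Rarb and Rarg had 28.2, 26.1 and 25.5-fold. Aldh1a2, which makes retinoic acid, was at 9.15-fold, and Cyp26a1, which degrades it, at 5.38-fold. Cdx1, Cdx2, Cdx4 and Cyp26c1 were not marked.

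The labelled tissue was checked against genes of cortex and of other cells. All 14 cortical transcription factor genes described were marked, with a median of 35.8-fold and a median width of 3482 bp, among them Emx1 (41.0-fold) and Pax6 (38.3-fold). Genes of hindbrain and spinal cord were marked in 10 of 12 cases at a median of 6.73-fold, beside 6.37 for the Hox genes. Mnx1 and Lbx1 were those not marked. The intervals of the share in this list (55.2 to 95.3%) and among mesenchyme markers (52.4 to 92.4%) include the 62.7% of all protein-coding genes. Mesenchyme markers were marked in 11 of 14 cases (median 9.92-fold, range 4.34 to 16.4), with Col3a1, Dcn and Lum not marked. Endothelial markers were marked in 4 of 10 cases (Kdr at 30.2-fold, Erg at 15.4-fold, Cldn5 at 9.38-fold and Flt1 at 7.35-fold), and blood and microglia markers in 2 of 11 (Runx1 at 16.4-fold and Klf1 at 30.1-fold). Their intervals were 16.8 to 68.7% and 5.14 to 47.7%. CpG-rich genes numbered 11 of 12 in the hindbrain and spinal cord list and 5 of 14 among mesenchyme markers. They numbered 3 of 10 among endothelial and 1 of 11 among blood and microglia markers. Of these, 9, 5, 2 and 0 were marked, against 97.3% of other CpG-rich genes. Whether cells other than those of the cortex contributed to the 6 Hox peaks was not tested, and in a bulk sample a weak mark in all cells and a strong mark in few cells cannot be told apart.

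**Figure D4:**
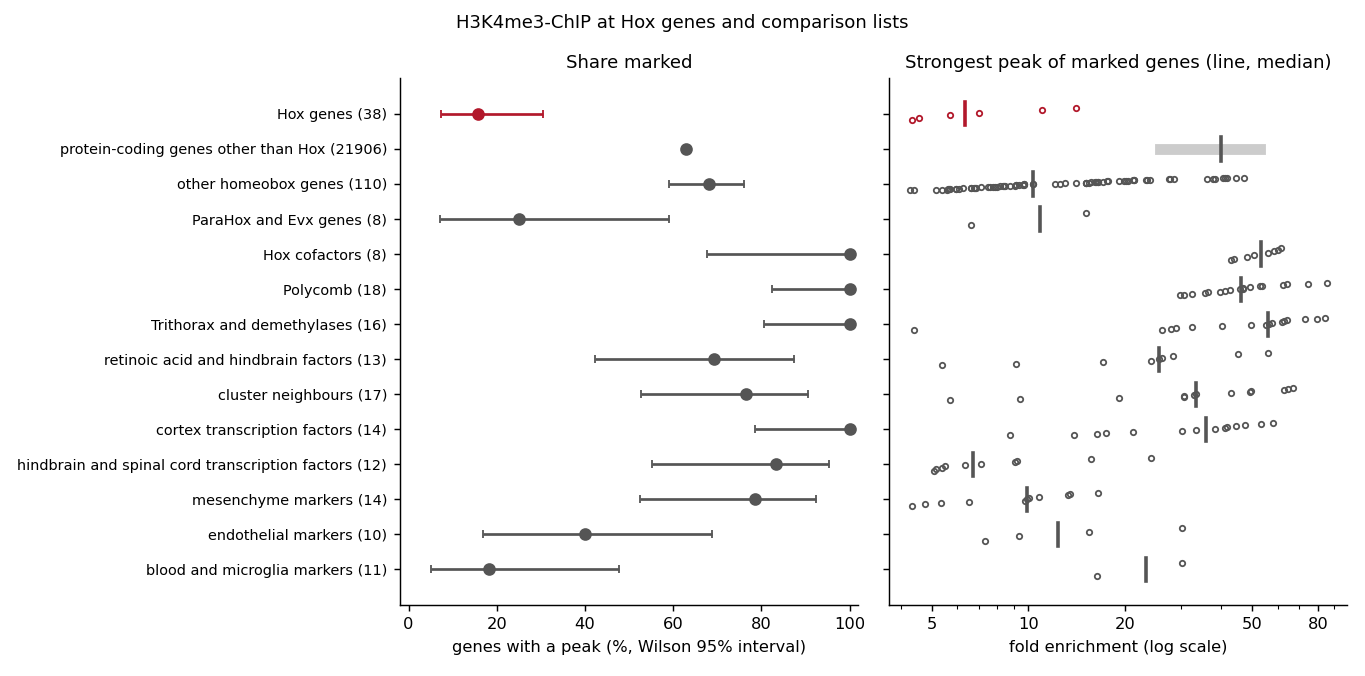
Left, the share of genes with an H3K4me3-ChIP peak (%, Wilson 95% interval) in the Hox genes and each comparison list, with the number of genes in brackets. Right, the fold enrichment (log scale) of the strongest peak of each marked gene, with the median as a line and, for all other protein-coding genes, the middle 50% as a bar. The Hox genes have 15.8% marked and a median of 6.37-fold, next to 6.73-fold for the hindbrain and spinal cord genes.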

How the data were processed

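Libraries were 3, from mouse cortices at E13.5 (input, NF-Y-ChIP and H3K4me3-ChIP, 1 each). Per the methods, Trimmomatic, Bowtie 2 (genome mm10, which is GRCm38) and MACS2 were run by the authors. MACS2 kept NF-Y-ChIP peaks below a p-value of 0.001 and H3K4me3-ChIP peaks below a q-value of 0.05. The submitters' processing notes list FastQC, Bowtie2 2.2.8 and MACS2 2.1.2. The study names the input as its negative control, and whether MACS2 was run with it is not given in the sources used here. Fold enrichment, as deposited, is a ratio of summit signal to local background. Each peak also has a deposited −log10 p-value and −log10 q-value. The score in the deposited lists, 10 times one of these −log10 values, was used only to tell the lists apart, together with the thresholds and the number of NF-Y-ChIP peaks. The lists held 733 NF-Y-ChIP peaks and 18816 H3K4me3-ChIP peaks. The latter number is below that of the H3K4me3 regions the study gives, and the cause was not tested. They hold no read counts, so the depth is unknown, and the absence of a peak depends on the depth at which peaks were called. A higher local background lowers the fold.

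Every GENCODE M21 transcript gave a TSS at its 5′ end. Each gene took its strongest peak whose edge lay within 1000 bp of a TSS. Positions are 1-based. CpG and CCAAT were read from GRCm38.p6, and the 250-base promoter windows from RefSeq, in which 22 of the 38 genes matched. Wilson intervals cover the number of genes only. The members and lists were chosen with earlier results of these data known. Some lists share genes, such as Pax6 in the cortex list and the other homeobox genes, and 1 of 18 neighbours (Prac1) did not match the annotation. The genes named were all members, the nearest protein-coding gene on each side of a cluster, list members where 5 or fewer fell on one side, the gene of the nearest NF-Y-ChIP peak, and Emx1, Pax6 and Egr2. A further 7 protein-coding genes, 1 of them a Hox gene, are not reported here and were left out of every count of genes. Other named list genes were picked after their values were seen. The alternatives changed the TSS set, distance, thresholds, cluster limits, merging, windows and target rule. Simulated data were used to test the functions. The tools were samtools 1.23.1, pysam 0.24.0, Python 3.11.15, pandas 2.3.3, SciPy 1.17.1, matplotlib 3.10.9 and NumPy 2.4.6.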

Additional observations from a re-analysis of the deposited data

How the results depend on the processing

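No paired analysis was possible because each antibody has 1 library, and no replicate could be left out. Of 147 values recomputed under an alternative, 117 stayed within 1.5 times the value reported, or within its interval for shares of genes. A change of direction was possible only for the difference in median CpG ratio, which kept its sign. Some of the values could not change, such as the absent cover of Hoxb and Hoxc under stricter thresholds. The number of marked Hox genes was 2 with peaks of at least 10-fold or a −log10 q of at least 10, and 3 when the peak had to cover the TSS. With either threshold the clusters held 2 peaks, the median fold at marked Hox genes was 12.5, the median width 567 bp and the covered share 0.483% of Hoxa and 0.68% of Hoxd. With 10 kb added to each side, 1.42% of Hoxa was covered. When the peak had to cover the TSS, 6 hindbrain and spinal cord genes, 2 endothelial and 1 blood or microglia gene were marked, and this last number was also 1 with 5′ ends of genes only or a distance of 500 bp. A −log10 q of at least 10 left 5 hindbrain and spinal cord genes and 1 ParaHox or Evx gene. Peaks of at least 10-fold left 39 other homeobox genes, 1 ParaHox or Evx gene, 2 hindbrain and spinal cord, 5 mesenchyme and 2 endothelial genes. Of these stricter rules, only the 10-fold limit has a share over all protein-coding genes beside it, 58.6%. For the −log10 q limit and the cover of the TSS that share was not computed. The median CpG ratio of marked Hox genes exceeded that of unmarked ones by 0.0789 in windows of 250 bp, 0.236 in windows of 1000 bp and 0.252 as the mean over all TSSs, against 0.155 in the windows of 500 bp reported. With 1000 bp upstream in place of 200, 92.1% of Hox genes had a CCAAT box, against 77.4% of other protein-coding genes. The number of Hox genes with an NF-Y-ChIP peak was 0 under all 5 alternatives tried, including a distance of 5 kb and the study's rule for target genes. None of these could have raised the count. The NF-Y-ChIP peak nearest to any Hox TSS lay 67.6 kb away, at Hoxc4, and the other alternatives used fewer TSSs or fewer peaks. Other limits for CpG-rich genes, chosen after the data had been seen, kept the share of marked genes within its interval. With a limit of 0.7 or windows of 1000 bp, 5 of the 6 marked Hox genes were CpG-rich. The fewer peaks of the stricter thresholds follow from their construction. Depth, which the lists do not give, limits every statement on a missing peak.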

Other observations

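Of the 38 genes inside the clusters that do not encode proteins, 2 were marked, against 11.4% of 25716 genes of the same annotated types. That share depends on the mix of types, since 9940 of the 25716 were processed pseudogenes (0.996% marked), of which the clusters held 1. The clusters held 8 antisense genes, 1 of them marked, against 31.4% of all antisense genes. None of their 3 processed transcripts was marked, against 49.9% of all of that type. Of 9 inside Hoxd, Haglr was marked by the peak of Hoxd1 (14.0-fold) and Gm28793 by that of Hoxd9 (4.57-fold). None of the 13 between Hoxa2 and Hoxa13 was marked. None of the 9 in Hoxb and 7 in Hoxc was marked, including Hotair, a long non-coding RNA of the Hoxc cluster. The microRNA genes inside the clusters, among them Mir10a, Mir10b and Mir196b, had no H3K4me3-ChIP peak at their annotated 5′ ends. These are the ends of the hairpin and not of the primary transcript.

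Of the 10076 CpG-rich protein-coding genes, 290 were not marked. Of these, 18 were Hox genes (6.21%) and 18 were other homeobox genes. These counts were made after the data had been seen.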
